A study of Mus musculus with 12 samples.

Results

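The data described here concern 9 transcription factor genes known for their part in naive T cells, Lef1, Tcf7, Satb1, Foxp1, Foxo1, Foxo3, Bach2, Ets1 and Zeb1. Their rows are picked by gene name, and the list was chosen with earlier results of these data known. The 9 genes make up 9 of the 55487 genes in the count table and 9 of the 15905 genes that passed the filter on low counts. The cells were CD4+ T cells sorted from mouse spleen and peripheral lymph nodes. The KO effector group came from Rinl knockout mice and was sorted as CD44hi, and the WT effector group was sorted in the same way from wild-type mice. The KO naive group came from Rinl knockout mice and was sorted as CD44lo, with a WT naive group from wild-type mice as its counterpart. Each group held 3 libraries, which are called here by the order of the table's columns: KO effector 10 to 12, WT effector 4 to 6, KO naive 7 to 9 and WT naive 1 to 3. No treatment is named for any group. The sources used here do not give the strain, age or number of animals behind a library, or the part of Rinl that was altered. Since separate animals are not stated for the libraries of a group, all p-values reflect the spread between these libraries, which may be technical.

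A naive CD4+ T cell has left the thymus but has not met its antigen. It recirculates through lymphoid organs in a quiescent state that is actively kept by transcription factors. LEF1 and TCF1, the product of Tcf7, are HMG box proteins that bind the same DNA element, recruit beta-catenin or Groucho/TLE corepressors, and set up T cell identity from the thymus onward. SATB1 folds chromatin into loops, FOXP1 and the FOXO factors hold cells in quiescence, and BACH2 and ZEB1 repress genes of activated cells. FOXO1 and FOXO3 are excluded from the nucleus when AKT phosphorylates them, so their activity is controlled largely on the protein and is not read directly from their mRNA. The protein made from Rinl activates small GTPases of the RAB5 family as an exchange factor.

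Library totals were 11606251 to 20381010 in KO effector, 12893396 to 16428862 in WT effector, 20072199 to 24320247 in KO naive and 12409965 to 19584111 in WT naive cells. The members were counted deeply: their raw counts lay between 763, for Zeb1, and 53633, for Tcf7. Rinl, the targeted gene, was lower in every KO library than in every WT library, with log2 fold changes of -3.24 ± 0.049 in effector cells and -3.16 ± 0.049 in naive cells (± SE, edgeR adjusted p = 2.0e-23 and 4.3e-23). The sort was visible in the mRNA of Cd44, which averaged 229 ± 9.04 CPM in KO effector, 257 ± 2.33 CPM in WT effector, 18.9 ± 1.99 CPM in KO naive and 18.8 ± 1.42 CPM in WT naive cells (SD, n = 3 each). Cd4 averaged 991 to 1043 CPM in the 4 groups, and Cd8a stayed under 0.6 CPM in every library. Rag1, which immature thymocytes need to assemble antigen receptors, had no count in any library. Other markers of these cell types were present. Cd8a and Cd8b1 together, almost all of it Cd8b1, summed to 19.5 to 21.8 CPM in naive and 5.52 to 8.04 CPM in effector libraries. Dntt, another thymocyte marker, averaged 10.3 CPM in KO naive and 11.7 CPM in WT naive cells, against 0.106 and 0.091 CPM in KO and WT effector cells. CPM are counts scaled to a common library size with TMM factors.

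Promoter sequences were at hand for 7 of the 9 members, Ets1 and Zeb1 being the other two, in RefSeq's table on GRCm38.p6. Those shown are of the 3 members that fell most in effector cells, Lef1, Satb1 and Bach2, and those of the FOXO pair, of which Foxo1 fell and Foxo3 was not called. Each is the stretch before the most upstream RefSeq start, up to 250 bases, without bases that lie in an exon of the gene in GENCODE M21, written 5′ to 3′ on the gene's strand. Capitals mark a match to the LEF1 and TCF1 core motif CTTTGA or its reverse complement TCAAAG.
Lef1, chr3:131110047-131110296, plus strand: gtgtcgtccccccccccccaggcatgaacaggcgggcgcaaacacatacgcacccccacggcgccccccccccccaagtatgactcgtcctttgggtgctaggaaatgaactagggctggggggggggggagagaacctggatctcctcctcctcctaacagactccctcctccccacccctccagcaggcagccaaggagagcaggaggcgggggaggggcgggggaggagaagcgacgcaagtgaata
Satb1, chr17:51833291-51833540, minus strand: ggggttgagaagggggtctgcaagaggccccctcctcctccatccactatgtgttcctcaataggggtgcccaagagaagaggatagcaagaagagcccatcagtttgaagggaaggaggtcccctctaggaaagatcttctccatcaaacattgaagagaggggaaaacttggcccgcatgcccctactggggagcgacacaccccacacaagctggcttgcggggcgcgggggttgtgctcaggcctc
Bach2, chr4:32417185-32417434, plus strand: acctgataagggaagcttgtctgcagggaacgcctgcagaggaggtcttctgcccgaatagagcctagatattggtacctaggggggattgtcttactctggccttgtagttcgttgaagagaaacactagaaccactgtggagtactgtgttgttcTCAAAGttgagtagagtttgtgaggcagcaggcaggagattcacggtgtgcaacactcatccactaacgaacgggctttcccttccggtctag
Foxo1, chr3:52268087-52268335, plus strand: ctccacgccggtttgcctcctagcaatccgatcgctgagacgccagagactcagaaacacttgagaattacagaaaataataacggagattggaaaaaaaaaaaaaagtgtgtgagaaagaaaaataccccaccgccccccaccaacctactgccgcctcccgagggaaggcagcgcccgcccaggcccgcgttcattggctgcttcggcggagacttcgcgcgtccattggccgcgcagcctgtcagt
Foxo3, chr10:42276756-42276945, minus strand: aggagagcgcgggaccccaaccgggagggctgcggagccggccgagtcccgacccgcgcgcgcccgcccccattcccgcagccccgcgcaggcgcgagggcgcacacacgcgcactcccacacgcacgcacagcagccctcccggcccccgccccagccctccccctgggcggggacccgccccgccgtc

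The windows of 250 bases before the start of the 7 members were searched on both strands for 5 motifs. CTTTGA was found in Bach2 alone, 93 bases before the start, and is in 13.8% of all 32851 promoters of the table. The FOXO motif GTAAACA, the ETS motif CCGGAAGT, the ZEB1 motif CAGGTG and the BACH2 and AP-1 motif TGAGTCA were in none of the 7 windows, and are in 3.17%, 2.88%, 17.2% and 4.46% of all promoters. A match, or its lack, describes these letters only. The Bach2 start in the RefSeq table lies 178631 bases inside the deposited gene's 5′ end, so this window belongs to an internal start. Counted over the windows of 250 bases, Foxo3 had 31 CG pairs, Foxo1 20, Lef1 11, Bach2 7 and Satb1 5, against a median of 6 over all promoters. The window of Tcf7, which is not shown, had 37 CG pairs and that of Foxp1 11. The Foxp1 start lies 1728 bases inside the deposited gene's 5′ end. Of the windows searched and counted, that of Foxp1 has 169 bases in a GENCODE exon of the gene, and that of Foxo3 has 60.

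On the deposited FPKM scale, which corrects for gene length, the members ran from among the most abundant mRNAs of these cells to the middle of the range. Tcf7 was highest in every group, with 393 ± 19.6 FPKM in KO effector, 398 ± 13.9 in WT effector, 760 ± 31.4 in KO naive and 821 ± 11.7 FPKM in WT naive cells (SD, n = 3 each). In WT naive cells 99.4% of the genes tested lay below it. Ets1 followed, with 331 ± 8.01 FPKM in KO effector, 347 ± 15.5 in WT effector, 399 ± 5.64 in KO naive and 436 ± 7.28 FPKM in WT naive cells. Lef1 was the next in every group, but the distance changed: it stood at 50.7 ± 2.65 and 51.4 ± 1.38 FPKM in KO and WT effector cells, and at 240 ± 3.37 and 245 ± 18.5 FPKM in KO and WT naive cells. Below these the order depended on the cell type. In WT naive cells it was Satb1 (78.3 ± 1.97 FPKM), Foxo1 (55.0 ± 3.15), Foxp1 (48.5 ± 1.15), Bach2 (31.5 ± 1.84), Zeb1 (15.2 ± 0.257) and Foxo3 (15.1 ± 0.627), the last pair being closer than their spread. In WT effector cells it was Foxo1 (29.1 ± 0.291 FPKM), Satb1 (23.2 ± 1.22), Foxp1 (20.3 ± 0.750), Foxo3 (16.3 ± 0.724), Zeb1 (10.5 ± 0.635) and Bach2 (7.71 ± 0.451). Bach2 thus stood above Foxo3 and Zeb1 in naive cells and below both in effector cells: 48.9% of the genes tested lay below it in WT effector cells, and 83.0% in WT naive cells. KO cells kept these orders by mean, with Satb1 at 19.6 ± 1.22 and Foxp1 at 19.3 ± 0.562 FPKM in KO effector cells, where the libraries of these genes overlapped.

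**Figure D1:**
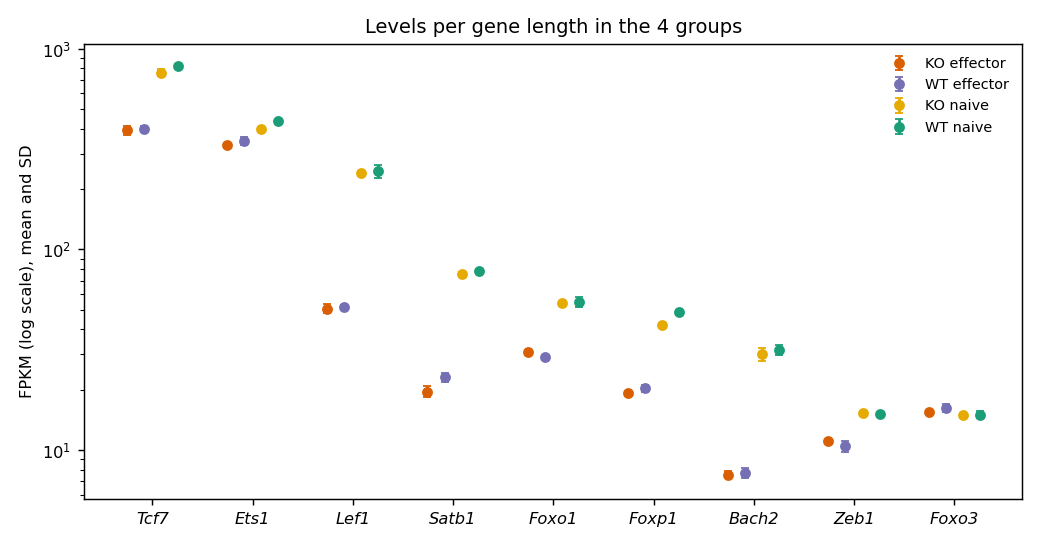
Mean FPKM of the 9 genes (log axis), with the SD over 3 libraries, in KO effector, WT effector, KO naive and WT naive cells. Tcf7 and Ets1 lie highest in all 4 groups, and Bach2 lies at 7.56 and 7.71 FPKM in KO and WT effector cells, against 30.0 and 31.5 FPKM in KO and WT naive cells.

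Effector cells were compared with naive cells within each genotype, which describes how the factors differ between the sorted populations. In both genotypes 8 of the 9 factors fell, all but Foxo3. In the background of all genes tested, 26.8% were called lower in KO effector cells and 25.9% in WT effector cells. The median log2 fold change of the 9 members was -0.95 in KO and -1.04 in WT, against medians over all genes tested of 0.0085 in KO and 0.0064 in WT. Fold changes are log2 values of effector over naive ± SE, and calls are edgeR adjusted p under 0.05 over all genes tested. In bulk RNA, fewer cells that express a gene and less RNA per cell cannot be told apart. Markers of other cell types moved with the sort. The 5 regulatory T cell markers summed to 1468 to 1710 CPM in KO effector against 206 to 219 CPM in KO naive libraries, and to 1251 to 1446 CPM in WT effector against 175 to 193 CPM in WT naive libraries. The 9 B cell markers, mostly Ighm, summed to 1084 to 1322 CPM in KO effector against 542 to 595 CPM in KO naive libraries, and to 928 to 1113 CPM in WT effector against 591 to 623 CPM in WT naive libraries, while Cd79a, which marks B cells, averaged 1.40 CPM or less in every group. The 5 matched markers of NK, NKT and gamma-delta cells summed to 93.1 to 119 CPM in KO effector against 20.6 to 22.9 CPM in KO naive libraries, and to 149 to 153 CPM in WT effector against 22.6 to 26.6 CPM in WT naive libraries. Both CD8 T cell markers together, almost all of it Cd8b1, were lower in effector cells. They summed to 7.19 to 8.04 CPM in KO effector against 19.8 to 21.8 CPM in KO naive libraries. In WT they summed to 5.52 to 6.70 CPM in effector against 19.5 to 20.8 CPM in naive libraries. The 4 immature thymocyte markers, almost all of it Dntt, summed to at most 0.174 CPM in KO effector against 9.94 to 10.8 CPM in KO naive libraries, and to at most 0.149 CPM in WT effector against 9.62 to 13.6 CPM in WT naive libraries. The part of these markers in the falls was not tested.

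Lef1 (ENSMUSG00000027985, GRCm38 chromosome 3, 131110471 to 131224356, plus strand) fell most. It stood at 173, 173 and 190 CPM in the KO effector libraries against 846, 853 and 830 CPM in the KO naive libraries. In the WT effector libraries it stood at 176, 186 and 183 CPM against 802, 931 and 868 CPM in the WT naive libraries. Effector libraries of both genotypes thus lay together at 21.2% of the naive mean in KO and 20.9% in WT, far below any naive library. The log2 fold change was -2.24 ± 0.054 in KO and -2.26 ± 0.054 in WT (edgeR adjusted p = 2.4e-20 and 2.6e-20).

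Tcf7 (ENSMUSG00000000782, chromosome 11, 52252371 to 52283331, minus strand), whose product shares LEF1's DNA element, fell less. KO effector libraries held 1102, 1161 and 1220 CPM against 2312, 2280 and 2138 CPM in KO naive libraries. WT effector libraries held 1219, 1141 and 1181 CPM against 2408, 2472 and 2422 CPM in WT naive libraries. The effector levels were 51.8% of the naive level in KO and 48.5% in WT, with log2 fold changes of -0.95 ± 0.047 and -1.04 ± 0.047 (edgeR adjusted p = 1.7e-14 and 3.4e-15). The 95% intervals of the Lef1 and Tcf7 fold changes were far apart in both genotypes, and effector cells kept Tcf7 mRNA at 393 and 398 FPKM, above the 240 and 245 FPKM that Lef1 had in naive cells.

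Satb1 (ENSMUSG00000023927, chromosome 17, 51736187 to 51833290, minus strand), the chromatin organiser, had 231, 211 and 237 CPM in KO effector against 886, 879 and 847 CPM in KO naive libraries. It had 251, 275 and 277 CPM in WT effector against 888, 907 and 927 CPM in WT naive libraries. The groups of each pair did not overlap, and the log2 fold change was -1.95 ± 0.051 in KO and -1.76 ± 0.051 in WT (edgeR adjusted p = 1.3e-19 and 7.6e-19).

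Of the forkhead factors, Foxp1 (ENSMUSG00000030067, chromosome 6, 98925338 to 99522721, minus strand), a repressor needed for quiescence of naive T cells, fell most. It stood at 157, 150 and 149 CPM in KO effector against 323, 333 and 335 CPM in KO naive libraries. It stood at 167, 159 and 156 CPM in WT effector against 375, 386 and 390 CPM in WT naive libraries. Its log2 fold change was -1.12 ± 0.043 in KO and -1.26 ± 0.043 in WT (edgeR adjusted p = 1.3e-16 and 1.9e-17).

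In the FOXO pair Foxo1 fell and Foxo3 was not called. Foxo1 (ENSMUSG00000044167, chromosome 3, 52268336 to 52353221, plus strand), which drives Il7r and Klf2 in naive T cells, stood at 269, 264 and 273 CPM in KO effector against 471, 470 and 465 CPM in KO naive libraries. It stood at 256, 254 and 251 CPM in WT effector against 460, 512 and 468 CPM in WT naive libraries. Its log2 fold change was -0.81 ± 0.044 in KO and -0.92 ± 0.044 in WT (edgeR adjusted p = 1.0e-13 and 1.0e-14), so effector cells held 57.2% and 52.8% of the naive level.

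Foxo3 (ENSMUSG00000048756, chromosome 10, 42181841 to 42276755, minus strand), a relative that binds the same DNA motif, was nearly level over all 12 libraries. It stood at 117, 112 and 116 CPM in KO effector against 110, 111 and 112 CPM in KO naive libraries. It stood at 115, 125 and 124 CPM in WT effector against 108, 116 and 113 CPM in WT naive libraries. Effector and naive libraries overlapped in WT, and were only just apart in KO, with effector cells higher. The log2 fold change was +0.05 ± 0.046 in KO (95% interval -0.05 to 0.14, edgeR adjusted p = 0.40) and +0.11 ± 0.047 in WT (95% interval 0.01 to 0.21, edgeR adjusted p = 0.0505). It was therefore the only member not called in this comparison, and in WT it was called higher under 6 of 21 other ways of fitting the data. These were the fits without library 2, 4 or 11, DESeq2's size factors, a filter at a mean of 5 CPM, and total counts without TMM factors, which also gave a call in KO (edgeR adjusted p = 0.00135 in WT and 0.0237 in KO).

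Bach2 (ENSMUSG00000040270, chromosome 4, 32238804 to 32586108, plus strand), a repressor that competes with AP-1 factors for their sites, stood at 69.6, 64.5 and 68.3 CPM in KO effector against 263, 289 and 251 CPM in KO naive libraries. It stood at 70.8, 64.5 and 71.6 CPM in WT effector against 293, 264 and 291 CPM in WT naive libraries. Effector cells thus kept 25.2% of the naive level in KO and 24.4% in WT, next to Lef1 in size. The log2 fold change was -1.99 ± 0.059 in KO and -2.03 ± 0.059 in WT (edgeR adjusted p = 1.7e-18 and 1.5e-18).

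Zeb1 (ENSMUSG00000024238, chromosome 18, 5591860 to 5775467, plus strand), a zinc finger repressor of Il2, had 66.0, 64.2 and 65.1 CPM in KO effector against 88.6, 90.1 and 89.2 CPM in KO naive libraries. It had 63.0, 56.9 and 63.2 CPM in WT effector against 88.8, 87.5 and 90.0 CPM in WT naive libraries. The decline was smaller but every effector library lay below every naive one, with a log2 fold change of -0.46 ± 0.048 in KO and -0.54 ± 0.049 in WT (edgeR adjusted p = 1.4e-08 and 1.4e-09).

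Ets1 (ENSMUSG00000032035, chromosome 9, 32636221 to 32757820, plus strand), the founding ETS factor and a partner of RUNX proteins at T cell enhancers, had 1822, 1740 and 1800 CPM in KO effector against 2181, 2157 and 2121 CPM in KO naive libraries. It had 1968, 1810 and 1862 CPM in WT effector against 2368, 2328 and 2395 CPM in WT naive libraries. This was the smallest of the 8 falls, to 83.0% of the naive level in KO and 79.5% in WT, with log2 fold changes of -0.27 ± 0.043 and -0.33 ± 0.043 (edgeR adjusted p = 9.7e-06 and 5.4e-07).

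**Figure D2:**
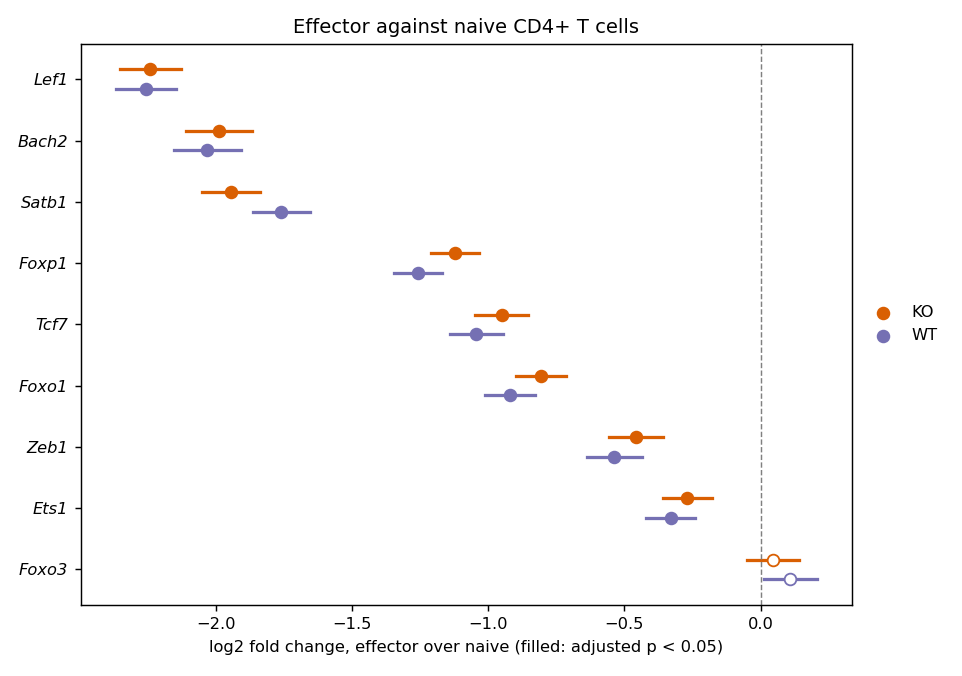
Log2 fold change of effector over naive cells for the 9 genes, with 95% intervals, in KO and WT; filled points have an edgeR adjusted p under 0.05. The genes run from -2.24 and -2.26 for Lef1 to 0.05 and 0.11 for Foxo3, which is the open pair of points.

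The libraries were non-overlapping in the lower direction for 8 members in KO and 8 in WT, where 29.9% and 29.1% of all genes tested were, and Foxo3 was non-overlapping in the higher direction in KO, where 34.0% of all genes tested were. Grouped by size, Lef1, Bach2 and Satb1 kept 20.9% to 29.5% of their naive level across both genotypes, Foxp1, Tcf7 and Foxo1 41.8% to 57.2%, Zeb1 and Ets1 68.8% to 83.0%, and Foxo3 103% and 108%. The 8 falls passed the threshold under all 21 other ways of fitting the data.

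**Figure D3:**
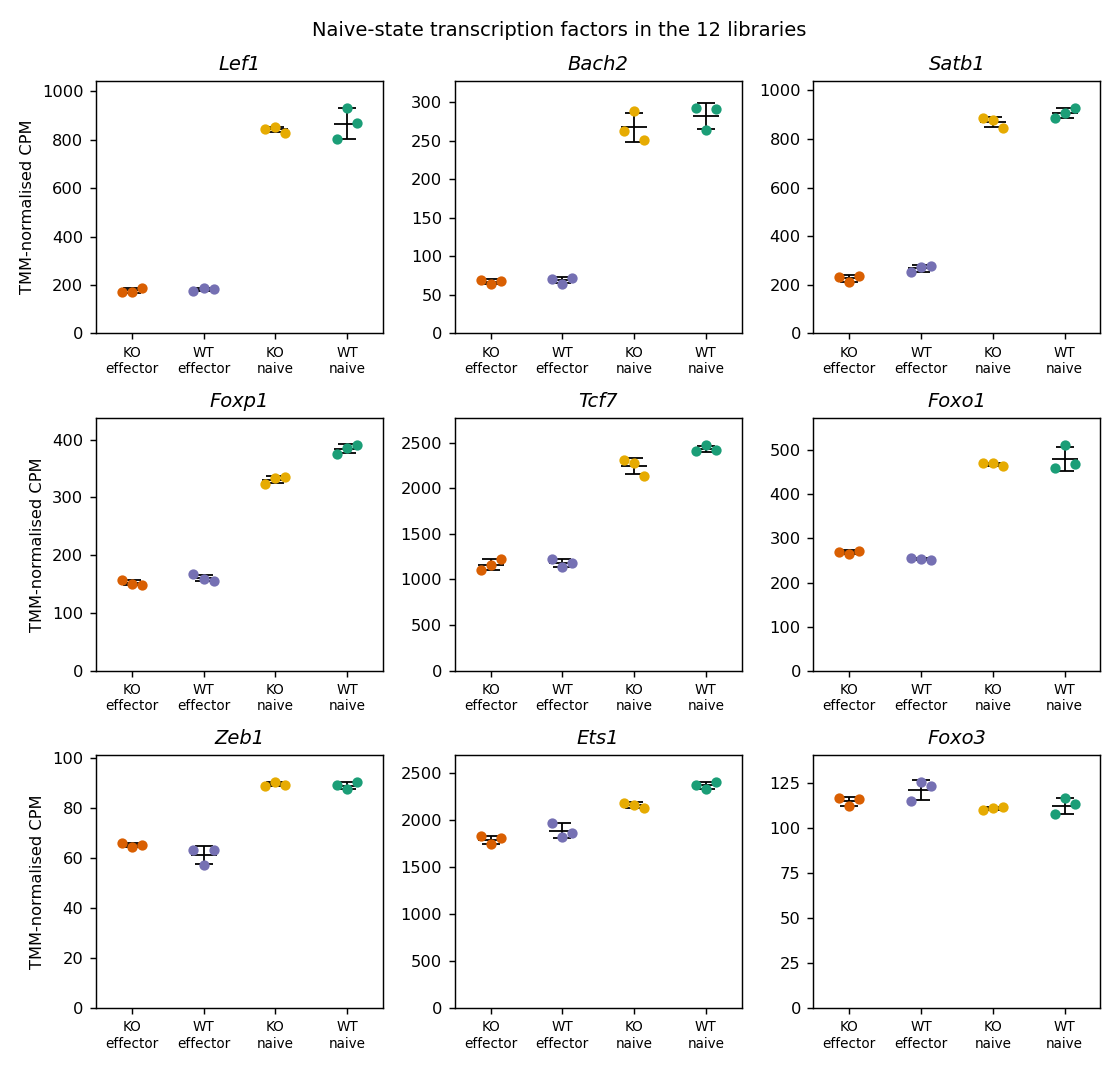
CPM of the 9 genes in each of the 12 libraries, 1 panel a gene with its own axis from 0, with the mean and SD of each group; the groups run KO effector, WT effector, KO naive and WT naive. Foxp1 in KO naive libraries lies at 323 to 335 CPM, below the 375 to 390 CPM of WT naive libraries, and Satb1 in KO effector libraries lies at 211 to 237 CPM, below the 251 to 277 CPM of WT effector libraries.

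The effect of Rinl loss on the factors was asked in each cell type. It was small for all 9: log2 fold changes of KO over WT lay between -0.22 and 0.01 in naive cells and between -0.24 and 0.09 in effector cells. A single member was called in each, Foxp1 in naive and Satb1 in effector cells, both lower in KO. Among all genes tested, 1.18% were called in naive cells (0.497% as lower) and 3.16% in effector cells (1.72% as lower). The median over the members was -0.06 in naive and -0.04 in effector cells, against 0 and 0.0022 over all genes tested.

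In naive cells Foxp1 averaged 331 ± 6.36 CPM in KO and 384 ± 7.88 CPM in WT (SD, n = 3 each). The libraries did not overlap, and KO cells had 86.1% of the WT level. The log2 fold change was -0.22 ± 0.042 (95% interval -0.30 to -0.13, edgeR adjusted p = 0.0083). The call was lost under 6 of 21 other ways of fitting, with the change between -0.22 and -0.19 in all: leaving out library 2, 3, 7 or 8 gave adjusted p of 0.0733, 0.0654, 0.0653 and 0.0599, and limma on the log2 FPKM gave 0.0662 with a pseudocount of 1 and 0.0524 with 0.1. In effector cells Foxp1 was at 152 ± 4.31 CPM in KO and 161 ± 5.75 CPM in WT, a log2 difference of -0.08 with a 95% interval of -0.17 to 0.01 (edgeR adjusted p = 0.40).

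Other measures moved with genotype in the naive libraries. KO naive libraries were deeper than all WT naive libraries. The summed level of the 8 cell handling genes, such as Fos and Jun, was 207 to 226 CPM in KO naive against 178 to 204 CPM in WT naive libraries. Of the 6 tested, 2 were called higher in KO, and 0 to 2 under 21 other ways of fitting. Among all genes tested, 1.18% were called in either direction. The 5 regulatory T cell markers summed to 206 to 219 CPM in KO naive against 175 to 193 CPM in WT naive libraries. Among them Foxp3 was at 58.3 ± 2.60 CPM in KO against 48.6 ± 2.81 CPM in WT. The 7 myeloid markers summed to 14.6 to 22.4 CPM in KO naive against 5.05 to 14.8 CPM in WT naive libraries. The 9 B cell markers summed to 542 to 595 CPM in KO naive against 591 to 623 CPM in WT naive libraries, which overlapped. The median log2 fold change of the 8 B cell markers tested was +0.62, and none was called. The sums of the 5 matched markers of NK, NKT and gamma-delta cells overlapped, with the KO range the lower. They were 20.6 to 22.9 CPM in KO naive against 22.6 to 26.6 CPM in WT naive libraries. By gene the direction differed: the median log2 fold change of the 5 was +2.34 in KO over WT. None was called, and 3 had an unadjusted edgeR p under 0.05, as had at least 1296 of the 15905 genes tested. Among them Zbtb16, the factor of innate-like T cells, was at 0 in all WT naive libraries. It averaged 0.060 CPM in KO naive libraries, which is close to no counts. Their part in the Foxp1 result was not tested.

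In effector cells Satb1 averaged 226 ± 14.02 CPM in KO and 268 ± 14.5 CPM in WT (SD, n = 3 each). KO effector cells had 84.5% of the WT level, and their libraries did not overlap. The log2 fold change was -0.24 ± 0.050 (95% interval -0.35 to -0.14, edgeR adjusted p = 0.0070). The call was lost under 3 of 21 other ways of fitting, in a fit of the effector libraries alone (adjusted p = 0.0531), without library 11 (0.0648) and with limma on log2 FPKM at a pseudocount of 0.1 (0.0634), with a change between -0.29 and -0.19 in all. In naive cells Satb1 was at 871 ± 21.0 CPM in KO and 907 ± 19.6 CPM in WT, a log2 difference of -0.06 with a 95% interval of -0.16 to 0.04 (edgeR adjusted p = 0.70).

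Markers of cell types within the effector gate moved beside Satb1. Among all genes tested, 3.16% were called between KO and WT effector cells, 1.72% as lower. The 5 regulatory T cell markers summed to 1468 to 1710 CPM in KO effector against 1251 to 1446 CPM in WT effector libraries, and 2 of the 5 were called higher, Foxp3 (log2 +0.35) and Ctla4 (+0.33). Of the NK, NKT and gamma-delta list 5 genes were matched, which summed to 93.1 to 119 CPM in KO effector against 149 to 153 CPM in WT effector libraries, and 3 of the 5 were called lower, Klrb1c (-0.47), Klrd1 (-0.68) and Zbtb16 (-0.75). The 9 B cell markers summed to 1084 to 1322 CPM in KO effector against 928 to 1113 CPM in WT effector libraries, which overlapped. Of the 8 tested, 1 was called lower, and their median log2 fold change was +0.36. Both CD8 T cell markers together summed to 7.19 to 8.04 CPM in KO effector against 5.52 to 6.70 CPM in WT effector libraries. The cell handling genes summed to 237 to 300 CPM in KO effector against 222 to 226 CPM in WT effector libraries. Of the 6 cell handling genes tested, 2 were called higher, and 0 to 4 under 21 other ways of fitting. Cd44, a gene of the sort, was at 229 ± 9.04 CPM in KO against 257 ± 2.33 CPM in WT effector cells (log2 -0.16, edgeR adjusted p = 0.084). The part of these in the Satb1 result was not tested.

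The remaining members were not called. Ets1 in naive cells was at 2153 ± 30.1 CPM in KO and 2364 ± 33.9 CPM in WT, without overlap, a log2 difference of -0.13 with a 95% interval of -0.22 to -0.05 (edgeR adjusted p = 0.15). It was called lower by DESeq2 (adjusted p = 0.0361) and in an edgeR fit of the naive libraries alone (0.0328). Tcf7 in naive cells was at 2244 ± 92.6 CPM in KO and 2434 ± 33.7 CPM in WT, also without overlap, a log2 difference of -0.12 with a 95% interval of -0.21 to -0.02 (edgeR adjusted p = 0.29). In effector cells Tcf7 differed by -0.02 (95% interval -0.12 to 0.07) and Ets1 by -0.07 (-0.16 to 0.02). Lef1, Bach2 and Foxo3 had overlapping libraries in both cell types. For Lef1 the interval ran from -0.14 to 0.06 in naive and from -0.14 to 0.09 in effector cells, and for Bach2 from -0.19 to 0.03 and from -0.16 to 0.09.

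Foxo1 and Zeb1 lay on the other side in effector cells. Foxo1 averaged 268 ± 4.50 CPM in KO and 254 ± 2.53 CPM in WT effector cells, and Zeb1 65.1 ± 0.905 CPM in KO and 61.1 ± 3.57 CPM in WT, with KO libraries above all WT libraries for both. The log2 differences of +0.08 ± 0.044 and +0.09 ± 0.050 did not pass the test (edgeR adjusted p = 0.39 and 0.41). Libraries were non-overlapping for 4 members in naive cells, Tcf7, Satb1, Foxp1 and Ets1, all lower in KO, where 9.72% of all genes tested were non-overlapping and lower. They were non-overlapping for 3 members in effector cells, Satb1 as lower and Foxo1 and Zeb1 as higher, where 8.73% of all genes tested were non-overlapping and lower and 9.18% non-overlapping and higher.

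**Figure D4:**
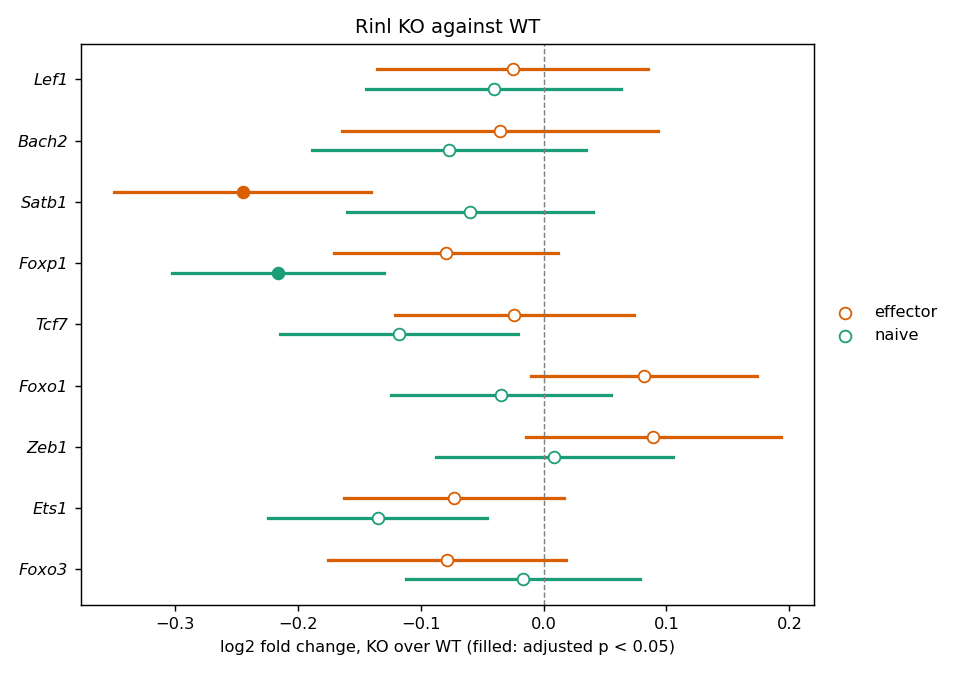
Log2 fold change of KO over WT for the 9 genes, with 95% intervals, in effector and in naive cells; filled points have an edgeR adjusted p under 0.05. Satb1 in effector cells (-0.24) and Foxp1 in naive cells (-0.22) are the filled points.

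Whether the KO effect differed between effector and naive cells was tested as an interaction. No member was called with edgeR, DESeq2 or limma-voom, and 0.145% of all genes tested were called with edgeR. With edgeR, 2 members had an unadjusted p under 0.05, as had at least 1116 of the 15905 genes tested. Satb1 had a log2 difference of -0.19 ± 0.070 (effector minus naive, edgeR adjusted p = 0.38) and Foxp1 of +0.14 ± 0.060 (edgeR adjusted p = 0.48). The calls of Foxp1 in naive cells alone and of Satb1 in effector cells alone are therefore not shown to be particular to those cells.

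Genes that act with the factors were read from lists, whose counts stand beside the shares of all genes tested: 31.6% were called higher and 26.8% lower in KO effector cells, and 30.2% higher and 25.9% lower in WT effector cells, each against naive cells. The 10 listed partners of TCF1 and LEF1, which are beta-catenin, its adaptors and TLE corepressors, were all tested. In effector cells 1 rose and 6 fell in KO, and 1 rose and 7 fell in WT. Bcl9, an adaptor of beta-catenin, fell, with log2 values of -0.80 in KO and -1.01 in WT, as did its relative Bcl9l with -0.57 in both. The corepressor gene Tle1 fell with -1.42 and -1.55, at 4.79 CPM in KO effector against 12.9 CPM in KO naive cells. Tle3, another corepressor gene and the 1 partner that rose, had +0.29 in KO and +0.27 in WT. It was more abundant, at 333 CPM in KO effector against 272 CPM in KO naive cells. Jup, which encodes plakoglobin, fell with -2.48 and -1.60, at 1.45 CPM in KO effector against 7.94 CPM in KO naive cells. Between KO and WT edgeR called none of the 10 in either cell type, with an unadjusted p under 0.05 for 3 in effector and 0 in naive cells. In effector cells at least 2557 of the 15905 genes tested were under that cut. Leaving out library 10 gave 1 call, higher in KO effector cells, and DESeq2 and limma-voom gave none.

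Genes known as targets of TCF1 and LEF1 moved in both directions. Of 8, 4 rose and 3 fell in effector cells of each genotype, with a median of +0.38 in KO and +0.21 in WT. Beside 31.6% of all genes tested called higher and 26.8% lower in KO, and 30.2% and 25.9% in WT, no direction is read from so few genes. Axin2, a feedback inhibitor of Wnt signalling, rose by 0.76 in KO and 0.93 in WT, and Slamf6, a surface receptor, by 0.67 and 0.59. The interleukin 6 receptor chains were lower in effector cells, Il6ra with -1.14 in KO and -1.17 in WT and Il6st with -0.54 and -0.72. Between KO and WT edgeR called none of the 8 in either cell type, with an unadjusted p under 0.05 for 4 in effector and 0 in naive cells. In effector cells at least 2557 of the 15905 genes tested were under that cut. DESeq2 and limma-voom called none of the 8. With no filter on low counts 2 were called higher and 1 lower in KO effector cells, without library 4 it was 1 and 1, and without library 10 it was 1 higher.

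Of 14 FOXO target genes, 3 rose and 9 fell in KO effector cells, and 2 rose and 10 fell in WT effector cells, where 26.8% of all genes tested were called lower in KO and 25.9% in WT. Ccr7, the lymph node homing receptor, fell with log2 values of -2.36 in KO and -2.39 in WT, and S1pr1, the receptor for exit from lymph nodes, with -1.28 and -1.26. Rbl2, a retinoblastoma relative of quiescent cells, rose by 1.11 and 1.26, and Gabarapl1, an autophagy gene, by 2.88 and 2.67. Between KO and WT, 2 of the 14 were called in each cell type, both lower, where 1.72% of all genes tested were called lower in effector and 0.497% in naive cells. The count moved under 11 of 21 other ways of fitting in effector cells, between 1 and 4, and under 10 of 21 in naive cells, between 0 and 5. It was 1 in effector cells without library 6, 7, 8, 9, 11 or 12 and 4 without library 10, and in naive cells 1 without library 1, 2, 3, 7 or 8 and 0 without library 9. An unadjusted edgeR p under 0.05 was seen for 7 of the 14 in effector and 8 in naive cells. At least 2557 and 1296 of the 15905 genes tested were under that cut. The median log2 fold change of the 14 was -0.07 in effector and -0.13 in naive cells. Il7r, the interleukin 7 receptor, was at 405 ± 36.0 CPM in KO and 543 ± 59.1 CPM in WT effector cells (log2 -0.42 ± 0.096, edgeR adjusted p = 0.037). In naive cells it was at 479 ± 15.8 CPM in KO and 686 ± 79.7 CPM in WT (-0.52 ± 0.095, edgeR adjusted p = 0.025). S1pr1 was at 288 ± 6.49 CPM in KO and 340 ± 3.08 CPM in WT effector cells (-0.24 ± 0.041, edgeR adjusted p = 0.0016), and at 700.4 ± 9.34 CPM in KO and 816 ± 19.6 CPM in WT naive cells (-0.22 ± 0.040, edgeR adjusted p = 0.0051). The calls of Il7r were lost under 9 of 21 other ways of fitting in effector and 7 in naive cells, and those of S1pr1 under 0 and 2. The mRNA of Foxo1 itself did not pass in either cell type, with 95% intervals of -0.01 to 0.17 in effector and -0.12 to 0.05 in naive cells.

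Among 8 genes that act upstream of FOXO, 1 rose and 5 fell in KO effector cells, and 1 rose and 6 fell in WT effector cells, again beside 26.8% of all genes tested called lower in KO and 25.9% in WT. Pik3ip1, an inhibitor of PI3 kinase, fell, with log2 values of -1.75 in KO and -1.62 in WT, and so did Sgk1, a kinase that phosphorylates FOXO proteins, with -1.24 and -1.01. Usp7, a deubiquitinase that acts on FOXO proteins, had -0.48 and -0.43, and Stk4, which encodes the kinase MST1, -0.37 and -0.40. Between KO and WT, Pik3ip1 was at 58.5 ± 0.860 CPM in KO and 74.6 ± 1.58 CPM in WT effector cells (-0.35 ± 0.050, edgeR adjusted p = 2.1e-04). It was at 196 ± 6.67 CPM in KO and 229.6 ± 11.1 CPM in WT naive cells (-0.23 ± 0.044, edgeR adjusted p = 0.0083, lost under 6 of 21 other ways of fitting). Sgk1 was called lower in KO effector cells (-0.31 ± 0.081, edgeR adjusted p = 0.045) and lost the call under 14 of 21.

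Of the 5 partners of BACH2 and ZEB1, 4 were tested. Mafg, a small MAF protein with which BACH2 pairs to bind DNA, rose by 1.55 in KO and 1.39 in WT effector cells, while its relatives Mafk (-0.27 in both) and Maff (-1.16 and -0.86, at 2.20 CPM or less) fell. Ctbp1, a corepressor of ZEB1, fell in WT (-0.16) and had -0.09 without a call in KO. In the KO and WT contrasts edgeR called none of the 4, no unadjusted p was under 0.05, and none was called under any of the 21 other ways of fitting.

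Family relatives of the 9 factors moved in both directions. Of 11 relatives 7 passed the filter, of which 4 rose and 2 fell in KO effector cells, and 4 rose and 3 fell in WT effector cells. For 7 genes these counts are not read as a direction beside 31.6% higher and 26.8% lower over all genes tested in KO, and 30.2% and 25.9% in WT. Foxp3, the regulatory T cell factor and a relative of Foxp1, rose by 2.95 in KO and 2.87 in WT, and Foxp4 by 0.62 and 0.49. Ets2 fell with -1.06 and -0.99, beside -0.27 and -0.33 for Ets1, and Bach1 fell with -0.49 and -0.51. Zeb2, singled out after its values were seen, rose and was low in naive cells: it averaged 9.68 ± 2.10 CPM in KO effector against 0.524 ± 0.217 CPM in KO naive cells, and 18.2 ± 9.90 CPM in WT effector against 0.220 ± 0.254 CPM in WT naive cells, so Zeb1 and Zeb2 changed in opposite directions. Between KO and WT edgeR called Foxp3, higher in effector cells, and no other relative in either cell type. The Foxp3 call was lost under 4 of 21 other ways of fitting, with an adjusted p of up to 0.0741, among them those without library 6 or 11. The number of relatives called higher lay between 0 and 2 in effector cells, with 2 without library 4, and became 1 in naive cells under 4 of 21, DESeq2 and the fit without library 4 among them.

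The other genes of the naive state that were listed largely fell: of 11, 1 rose and 8 fell in KO effector cells and 8 fell in WT, where 26.8% of all genes tested were called lower in KO and 25.9% in WT. The gene that rose was Cd27 (+0.12, edgeR adjusted p = 0.035), and the call was lost under 9 of 21 other ways of fitting, among them those without library 1, 2, 3, 8, 9 or 11. Dapl1 had log2 values of -4.73 in KO and -4.48 in WT, Atp1b1 -2.90 and -3.18, Actn1 -2.06 and -2.03, and Nsg2 -1.31 and -1.38. Atp1b1, a subunit of the sodium pump, was called lower in KO than WT naive cells (-0.31, edgeR adjusted p = 0.024), and Cd27, a costimulatory receptor, higher in KO than WT effector cells (+0.23, edgeR adjusted p = 0.011). These calls were lost under 8 and 5 of 21 other ways of fitting.

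Transcription factors of effector cells stood opposite to the members. All 16 listed rose in effector cells of both genotypes, with a median of 3.55 in each, where 31.6% of all genes tested were called higher in KO and 30.2% in WT. Tbx21, the T-bet factor, rose by 6.93 in KO and 8.06 in WT, and Irf4, a factor induced by antigen receptor signals, by 3.60 and 3.61. Gata3 rose by 1.28 in WT, and Ahr, a ligand-activated factor, by 3.71 in KO, and both were called higher in the other genotype too. Between KO and WT effector cells 2 of the 16 were higher, Hif1a (+0.37) and Batf (+0.30), and 2 lower, Tbx21 (-0.59) and Id2 (-0.50), where 3.16% of all genes tested were called in either direction. The calls of Batf and Id2 were each lost under 6 of 21 other ways of fitting (adjusted p of up to 0.142 and 0.125), that of Hif1a under 2 and that of Tbx21 under 1. In naive cells edgeR called none of the 16, with an unadjusted p under 0.05 for 1. At least 1296 of the 15905 genes tested were under that cut in these cells. None of the 16 was called there under the 21 other ways of fitting.

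**Figure D5:**
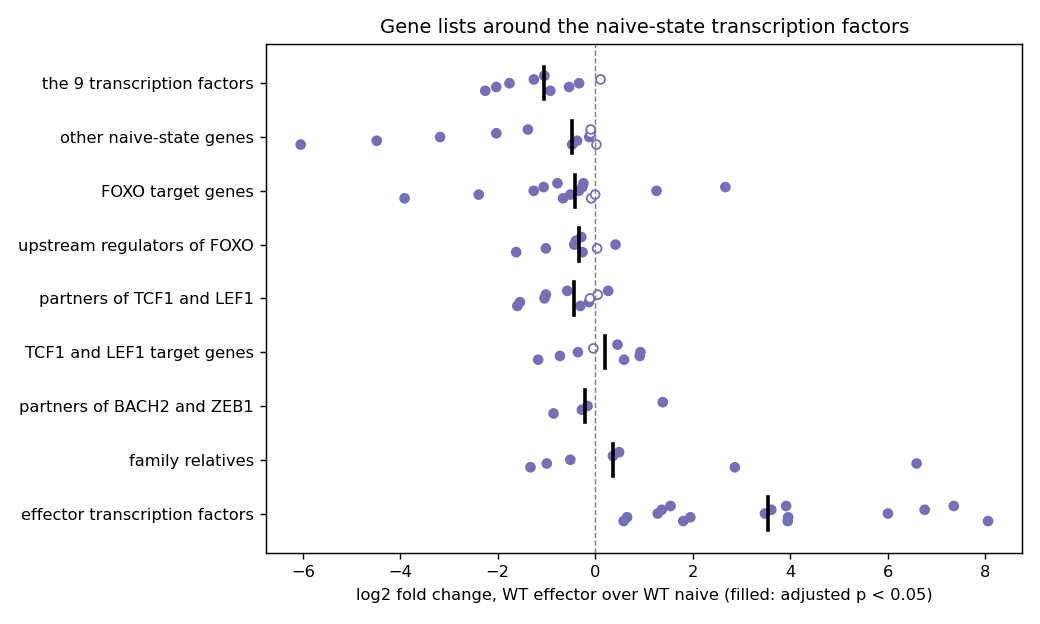
Log2 fold change of WT effector over WT naive cells for each tested gene among the 9 factors and the 8 lists around them; filled points have an edgeR adjusted p under 0.05 and black bars mark medians. The 9 factors have a median of -1.04 and the 16 effector transcription factors, all filled, a median of 3.55.

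The pattern of each member over the 12 libraries was set beside that of 9640 genes with a mean of at least 5 CPM, as the root mean square difference in log2 CPM after each gene was centred on its own mean. Lef1 lay closest to Tgfbr3 (0.065), which encodes betaglycan, to Ccr7 (0.077) and to St8sia6 (0.113). Tcf7 lay closest to Nckap5l (0.048), Gucd1 and Klf13, Satb1 to Pdk1 (0.084), Cmah and Tet1, and Foxp1 to Rcan3 (0.059), Rflnb and Pecam1. Foxo1 lay closest to Ppm1h (0.055), Impdh1 and Arl5c, Foxo3 to Nedd9 (0.033), Gtf2f1 and Septin1, and Bach2 to Als2cl (0.078), Cd55 and Actn1. Ets1 lay closest to Fam122b (0.030), Znrf2 and Pias1, and Zeb1 to Abl2 (0.039), Usp36 and Slc37a1. Among the members themselves Tcf7 and Foxo1 were the most alike (0.095), followed by Tcf7 and Foxp1 (0.120), Ets1 and Zeb1 (0.129) and Satb1 and Bach2 (0.133). Among pairs of related factors the distance was 0.190 between the forkhead genes Foxp1 and Foxo1, 0.475 between Foxo1 and Foxo3 and 0.627 between Lef1 and Tcf7, and Lef1 and Foxo3 were farthest apart (1.16). These distances are descriptions that mostly carry the difference between effector and naive libraries.

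Genes that overlap the members held few counts. Those annotated within the members, such as Bach2it1 and the antisense Lef1os1, held at most 0.970% of the member's own counts, and Foxo3 had none. No source used here gives the strand setting of the counting, so reads of an antisense gene cannot be told apart from those of its partner.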

How the data were processed

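Libraries of messenger RNA were made with a stranded kit, per the labels' protocols. The deposited counts are raw and whole for each gene and library, as the file headers name them. The deposited FPKM values come in a table of the same 12 libraries; on 11921 genes with at least 20 counts in every library they equalled the counts divided by a length per gene and a size factor per library (tolerance 0.01), so both tables are the same measurement. The submitters' processing notes name STAR, Picard, DESeq2 1.30.0, mm10 and GRCm38, without roles. They do not name the counter or its strand setting, which are otherwise not given in the sources used. Columns were matched to groups by name; they carry no replicate number. Within groups, pairs of libraries had a chi-square of 2.25 to 5.89 per gene, above the sampling noise, and each counted as a replicate.

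The test was edgeR 4.0.16 in R 4.3.3, with filterByExpr by group, TMM factors (0.968 to 1.04), and a robust quasi-likelihood fit of all 12 libraries with a coefficient per group. P-values were adjusted over 15905 genes (Benjamini-Hochberg, 0.05); SE is the fold change over the square root of F. The biological coefficient of variation was 5.21%, and the members' coefficient of variation within groups 0.729% to 7.45%. The model was also run on data simulated with the spread fitted to these libraries, and the outcome is not given here. Alternatives were DESeq2's size factors or total counts in edgeR, no filter, a mean of at least 5 CPM, DESeq2 1.42.0, limma-voom (limma 3.58.1), limma on log2 FPKM with pseudocounts of 1 and 0.1, a fit of the compared groups alone, and each library left out.

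The members and lists were chosen with earlier results of these data known. Genes named beside the members are the up to 4 called genes of each list with the smallest p in a comparison, markers, and the 3 genes most alike to each member. Zeb2 and Tle3 are named outside this rule. Of the listed symbols, 1 was not matched, Tcrg-C1. Promoters are RefSeq's, on GRCm38.p6. Some genes that the rule for named genes would name are not reported here.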

Additional observations from a re-analysis of the deposited data

How the results depend on the processing

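No paired analysis was possible because the columns of the deposited tables carry genotype and cell type but no replicate number. Up to 21 alternatives were run per result. The number of members called higher in WT effector against WT naive cells, 0, became 1 with DESeq2's size factors, total counts or a mean of at least 5 CPM, and in KO it became 1 with total counts; the gene was Foxo3. With libraries left out it was 0 to 1 in WT (1 without library 2, 4 or 11). Members called lower in KO than WT naive cells, 1, became 2 with DESeq2 and in the fit of the naive groups alone, and 0 with limma on log2 FPKM with either pseudocount (1 or 0.1); with libraries left out the count was 0 to 1 (0 without 2, 3, 7 or 8). In effector cells, 1 became 0 with limma on log2 FPKM at 0.1 and in the fit of the effector groups alone, and was 0 to 1 with libraries left out (0 without 11).

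Over all genes, the 187 calls of KO against WT in naive cells became 501 with no filter, 40 and 57 with limma on FPKM at pseudocounts of 1 and 0.1, 528 in the fit of the naive groups, and 66 to 255 with a library left out, lowest without 8, 2, 9 and 7 (66, 72, 84 and 124). The 503 calls in effector cells became 959, 262, 139 and 230 under these settings, and 194 to 662 with a library left out, lowest without 11, 6 and 5 (194, 267 and 270). The 23 interaction calls became 277 with no filter, 52 with DESeq2, 13 and 8 with limma on FPKM, and 10 to 85 with a library left out (10 without 8, 85 without 4; also moved by over 1.5 times without 2, 6, 7, 9, 10 or 12). The causes were not tested.

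Signs turned in uncalled differences when a library was left out: KO against WT in naive cells ranged over -0.0858 to 0.0222 for Lef1, -0.0564 to 0.0221 for Foxo1 and -0.0406 to 0.0194 for Foxo3, in effector cells over -0.0585 to 0.014 for Tcf7, and the interaction over -0.0509 to 0.0570 for Lef1 and -0.0141 to 0.0878 for Bach2. Total counts moved the members' median of effector against naive cells to -0.87 in KO and -0.96 in WT. Every member held at least 763 counts in every library, and the spread between the 3 libraries of a group enters all errors given.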
